A study of Mus musculus with 4 samples.

Results

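NFIC is one of the nuclear factor I (NFI) transcription factors, proteins that bind DNA as dimers at a palindrome made of 2 short arms held apart by a fixed spacer. The upstream promoter of a gene is the stretch between its core promoter, where the transcription machinery assembles over the start site, and the more distant regulatory DNA; it often holds CpG islands in housekeeping genes and binding sites for regulated factors in tissue-specific genes. In the exocrine pancreas most cells are acinar cells, which make and secrete digestive enzymes and carry a large secretory endoplasmic reticulum (ER).

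The upstream promoter peaks of protein-coding genes were the NFIC ChIP-Seq peaks annotated as promoter-TSS whose nearest gene was protein-coding and whose centre lay from -1000 to -151 bp of the assigned transcription start site (TSS). They were 1021 of 15824 peaks (6.45%, 95% Wilson interval 6.08 to 6.85%), at 1010 genes. The list came from 3 ChIP libraries made with an anti-NFIC antibody (Bethyl) and 1 input DNA library without antibody, all from the pancreas of wild-type mice aged 8 to 12 weeks by the design text, of a strain labelled Mixed. Whole pancreas was used, so the cell types that contributed to a peak cannot be told apart, and the list holds 1 merged score per peak with no value per library. The spread between the 3 libraries is therefore unknown here, and every interval and p-value below covers the counting of peaks only; peaks are not replicates of a condition. A peak of any class was found at 37.2% of the 21000 protein-coding genes of the annotation, and an upstream promoter peak at 4.8%. The following counts of genes with any peak are to be read against the former share, and those with an upstream one against the latter. Of the markers of pancreatic cell types, 9 of 10 acinar genes had a peak anywhere in the list and 4 had an upstream promoter peak (*Bhlha15*, *Cela2a*, *Cpa1*, *Ctrb1*), whereas 0 of 7 leukocyte genes had any peak. Duct genes had a peak in 5 of 8 cases and an upstream one only at *Muc1*, islet genes in 4 of 10 and only at *Isl1*, endothelial genes in 3 of 5 and stellate or fibroblast genes in 1 of 6, the latter 2 groups with no upstream promoter peak.

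All peaks were 173 bp long as deposited. The NFI full site searched for was TGGCNNNNNGCCA, which reads the same on both strands, with at most 1 mismatch among its 8 fixed bases. The sequences of some upstream promoter peaks are given in mm10, along the strand of the assigned gene so that the 3′ end lies toward the TSS, with the NFI full site that had the fewest mismatches in capitals. None of them overlapped an annotated exon. The first is the peak with the highest score of the class, and the next 3 are among the highest-scoring peaks with a site free of mismatches.
Tor1aip1, chr1:156036545-156036717, minus strand: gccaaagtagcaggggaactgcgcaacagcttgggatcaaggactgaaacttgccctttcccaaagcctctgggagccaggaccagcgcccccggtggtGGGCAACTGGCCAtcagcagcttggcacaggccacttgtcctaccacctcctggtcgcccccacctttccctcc
Sfswap, chr5:129500921-129501093, plus strand: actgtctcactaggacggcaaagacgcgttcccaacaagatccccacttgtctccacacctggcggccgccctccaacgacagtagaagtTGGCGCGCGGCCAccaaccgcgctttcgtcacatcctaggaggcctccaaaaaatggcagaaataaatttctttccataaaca
Nr2c2, chr6:92091988-92092160, plus strand: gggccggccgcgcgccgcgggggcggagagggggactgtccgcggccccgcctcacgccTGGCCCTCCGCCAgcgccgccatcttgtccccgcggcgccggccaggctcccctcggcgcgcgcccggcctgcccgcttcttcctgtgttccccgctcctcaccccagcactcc
Rbm15b, chr9:106887381-106887553, minus strand: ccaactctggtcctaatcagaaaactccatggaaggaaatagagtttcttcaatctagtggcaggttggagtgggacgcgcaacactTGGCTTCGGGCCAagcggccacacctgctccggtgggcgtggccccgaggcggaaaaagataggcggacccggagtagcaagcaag

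The following peaks lay upstream of genes of the acinar programme (*Ctrb1*, chymotrypsinogen; *Pnliprp2*, a pancreatic lipase-related protein; *Bhlha15*, which encodes the acinar factor MIST1; *Cela2a*, an elastase) and of the unfolded protein response (*Atf3*, a stress-induced transcription factor; *Ero1b*, an oxidase that drives disulfide formation in the ER). The *Cela2a* peak held no full site, and the capitals there mark a single-arm NFI site, TTGGCA.
Ctrb1, chr8:111691088-111691260, minus strand: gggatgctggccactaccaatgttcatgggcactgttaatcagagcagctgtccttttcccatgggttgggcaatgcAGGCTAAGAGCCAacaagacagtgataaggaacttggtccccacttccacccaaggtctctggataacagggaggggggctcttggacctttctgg
Pnliprp2, chr19:58758941-58759113, plus strand: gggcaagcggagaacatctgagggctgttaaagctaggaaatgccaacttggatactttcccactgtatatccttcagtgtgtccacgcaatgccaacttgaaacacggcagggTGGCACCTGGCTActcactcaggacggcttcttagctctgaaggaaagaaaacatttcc
Bhlha15, chr5:144190013-144190185, plus strand: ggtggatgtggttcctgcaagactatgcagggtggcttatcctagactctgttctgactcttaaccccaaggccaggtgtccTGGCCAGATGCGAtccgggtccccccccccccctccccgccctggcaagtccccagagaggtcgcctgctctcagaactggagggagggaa
Cela2a, chr4:141826073-141826245, minus strand: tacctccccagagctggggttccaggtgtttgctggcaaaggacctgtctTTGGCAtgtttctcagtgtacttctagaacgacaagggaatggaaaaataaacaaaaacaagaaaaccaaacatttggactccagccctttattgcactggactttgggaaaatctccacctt
Atf3, chr1:191183558-191183730, minus strand: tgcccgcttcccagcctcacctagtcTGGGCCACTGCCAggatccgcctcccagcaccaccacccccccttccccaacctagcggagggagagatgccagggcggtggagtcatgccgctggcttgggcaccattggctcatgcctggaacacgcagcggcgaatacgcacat
Ero1b, chr13:12565388-12565560, plus strand: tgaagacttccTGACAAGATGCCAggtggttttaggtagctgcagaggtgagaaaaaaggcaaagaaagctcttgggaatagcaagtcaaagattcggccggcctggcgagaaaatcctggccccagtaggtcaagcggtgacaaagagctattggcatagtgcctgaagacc

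For further secretory, stress, autophagy, clock and AP-1 genes only the site and its flanks are given, again with the site in capitals. The sites of *Tff2* (a secreted trefoil peptide) and *Fosl1* (an AP-1 subunit) were perfect, and the others had 1 mismatch.
Tff2, chr17:31144799-31144829, minus strand: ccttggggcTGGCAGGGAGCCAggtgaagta
Chac1, chr2:119351003-119351033, plus strand: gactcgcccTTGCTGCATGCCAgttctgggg
Ddit3, chr10:127290379-127290408, plus strand: ctgggagcTGGCGCTCCGCCCtctttcctc
Derl3, chr10:75893045-75893075, plus strand: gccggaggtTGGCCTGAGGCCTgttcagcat
Slc1a5, chr7:16781135-16781165, plus strand: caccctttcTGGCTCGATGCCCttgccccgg
Tmed10, chr12:85375249-85375279, minus strand: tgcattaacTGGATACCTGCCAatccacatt
Gabarap, chr11:69991000-69991030, plus strand: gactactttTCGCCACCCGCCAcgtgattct
Ctsb, chr14:63121517-63121547, plus strand: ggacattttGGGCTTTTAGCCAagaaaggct
Bhlhe40, chr6:108659811-108659841, plus strand: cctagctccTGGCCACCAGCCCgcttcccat
Fosl1, chr19:5447461-5447491, plus strand: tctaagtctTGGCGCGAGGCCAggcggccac

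The peaks became fewer with distance from the TSS. Their median distance was -312 bp (quartiles -496 and -211 bp). Within the first 100 bp of the window, down to -250 bp, lay 375 peaks (36.7%), and 252 (24.7%) lay beyond -500 bp. At the near edge the 5 peaks centred at -151 bp belonged to *Tor1aip1* (score 46.6), *Foxk2* (8.76), *Bpgm* (7.37), *Erc2* (5.18) and *Coprs* (4.78), and the 7 core promoter peaks at -150 bp just outside had scores from 5.58 (*Ankrd52*) to 11.8 (*Pkm*). At the far edge *Apoa2* at -1000 bp had a score of 6.97, and the next peak, at -1001 bp of *Tmem259* and annotated as intronic, had 5.58. A further 51 promoter-TSS peaks in the same window belonged to genes that were not protein-coding and were left out.

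**Figure D1:**
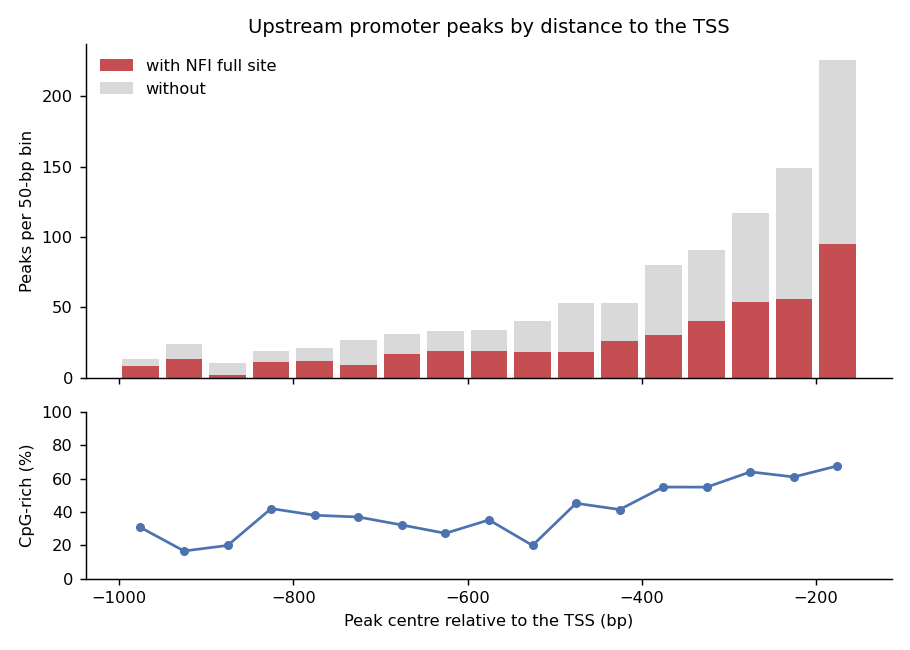
Number of upstream promoter peaks per 50-bp bin of distance from peak centre to TSS, split by whether the 200-bp window around the centre held an NFI full site (upper panel), and percentage of CpG-rich windows in each bin (lower panel). Peaks rise from 13 in the farthest bin to 226 in the nearest, and the CpG-rich share from 30.8% to 67.7%.

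An NFI full site was present in the 200-bp window around the centre of 447 upstream promoter peaks (43.8%, 40.8 to 46.8%). Over all 15824 peaks the share was 51.8%. In 84000 windows of the same length, centred -250, -450, -650 and -850 bp from the outermost TSS of 21000 protein-coding genes and taken without regard to binding, it was 7.68%. Of these windows 12.4% were CpG-rich, as defined below, against 52.3% of the upstream promoter peaks. The site was in 10.8% of the CpG-rich windows and in 7.25% of the others. A perfect site was found in 60 upstream promoter peaks (5.88%) and in 0.383% of all 84000 windows. The sites were close to the peak centres. From -20 to 19 bp of the centre there were 9.6 sites per 100 peaks in each 20-bp step, 8.67 times the 1.11 found beyond 200 bp on either side. The site with the fewest mismatches lay at a median of 24 bp from the centre, and within 20 bp in 194 of the 447 peaks (43.4%). In 64 peaks (14.3% of those with a site) there were 2 or more.

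**Figure D2:**
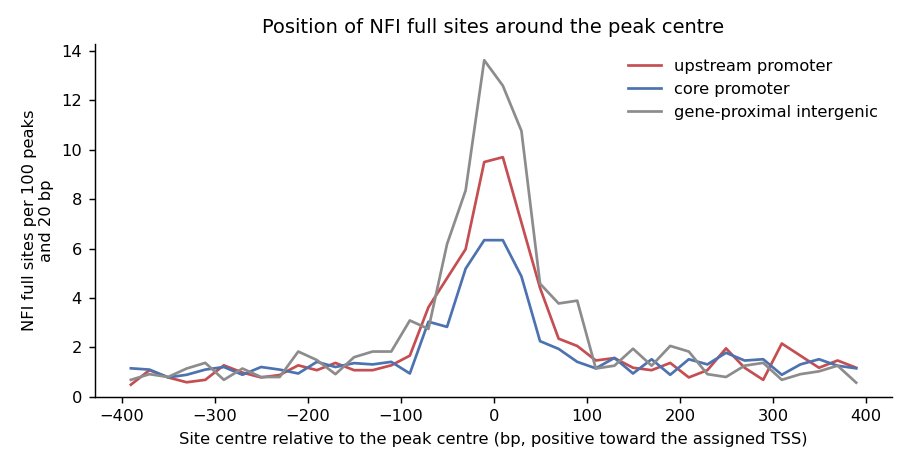
NFI full sites per 100 peaks in 20-bp steps, by the distance of the site centre from the peak centre in bp (positive toward the assigned TSS), for the upstream promoter (red), core promoter (blue) and gene-proximal intergenic peaks (grey). All 3 curves rise only near the centre, the upstream promoter peaks to 9.7 sites per 100 peaks, between the other classes.

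The arms of these sites tolerated changes unevenly. Of the 387 peaks whose best site had 1 mismatch, 335 (86.6%) had it at the outer or the inner base of an arm, counted as positions 1 and 4 from the outer end of TGGC, and 52 at the GG between them. In the best sites of the promoter windows taken without regard to binding, positions 1 and 4 held 61.0% of the mismatches. The most frequent substitutions in the upstream promoter peaks were T1G in 107 peaks (27.6%, against 9.95% in those windows) and C4A in 87 (22.5%, against 9.94%), while C4T was found in 16 (4.13%, against 15.1%). The base just outside the arm was a T on 30.4% of arms, against 19.3% in the windows. Perfect arms at a spacer of 5 bp were in 60 peaks, and at each of the 9 other spacers from 1 to 10 bp in 8 to 19 peaks (0.784 to 1.86%). In the promoter windows the 5-bp spacer was at 0.383% and the others at 0.327 to 0.493%, so each of the 9 other spacers was also more frequent in the peaks than in those windows. These comparisons were not adjusted for base composition, and only 12.4% of those windows were CpG-rich, against 52.3% of the peaks.

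No full site was found in 574 upstream promoter peaks. Of these, 144 (25.1%) held the single-arm site TTGGCA, leaving 430 (42.1% of the class) with neither. These 430 peaks had a median score of 5.98, 290 of them (67.4%) lay in a CpG-rich window, 233 (54.2%) held an SP site (GGGCGG), and 64 were in the highest score quartile of the list.

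The upstream promoter peaks were set beside their neighbours on either side, the 1909 core promoter peaks of protein-coding genes (from -150 to 100 bp) and the 874 gene-proximal intergenic peaks (from -10000 to -1001 bp). In NFI sites they stood between them. The full site was in 43.8% of upstream against 30.1% of core promoter peaks, a difference of 13.7 percentage points (95% Newcombe interval 10.04 to 17.4, adjusted p = 3.63e-13 in a two-sided exact test by Fisher's method), and in 56.7% of gene-proximal intergenic peaks, a difference of -13.0 points (-17.4 to -8.46, exact test, adjusted p = 2.59e-08). Perfect sites were in 5.88, 3.35 and 13.0% of the 3 classes.

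CpG content followed the opposite order. A window was called CpG-rich when its GC content was at least 50% and its observed over expected CpG ratio at least 0.6, which was true of 22.1% of all peaks. It was true of 534 upstream promoter peaks (52.3%), of 79.0% of core promoter peaks (difference -26.7 points, -30.3 to -23.2, exact test, adjusted p = 4.6e-49) and of 9.27% of gene-proximal intergenic peaks (difference 43.0 points, 39.3 to 46.5, adjusted p = 1.21e-95). The median GC content of the windows was 61% in the upstream, 67% in the core and 52.5% in the intergenic class. Within the upstream class the CpG-rich share fell from 65.1% at -250 bp and nearer, through 58.7% down to -400 bp, 36.7% down to -600 bp and 33.0% down to -800 bp, to 27.3% beyond. The NFI site went the other way, from 40.3% in the nearest to 51.5% in the farthest of these bins, whose 95% intervals overlapped (35.4 to 45.3% and 39.7 to 63.2%).

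The score is the merged peak score of the list, and its scale is not given in the sources used here. In the upstream class it had a median of 6.97 (quartiles 5.18 and 9.76, range 3.39 to 46.6), against 6.17 in the core and 7.17 in the intergenic class. A score at or above the list median of 6.57 was reached by 51.6% of all peaks and by 574 upstream promoter peaks (56.2%), 10.3 points more than core promoter peaks (6.48 to 14.03, exact test, adjusted p = 1.52e-07). Against the intergenic class the difference was -3.28 points (-7.71 to 1.18, exact test, adjusted p = 0.162), so that no difference was detectable between these 2 classes. The focus ratio, the fraction of reads that lie on the side of the centre their strand predicts, had medians of 0.667, 0.665 and 0.698.

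**Figure D3:**
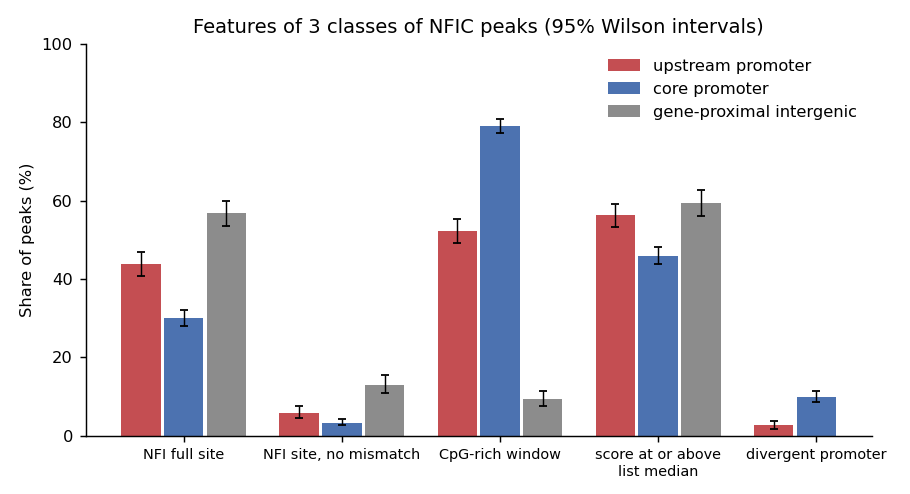
Percentage of upstream promoter (red), core promoter (blue) and gene-proximal intergenic peaks (grey) with each feature, with 95% Wilson intervals. The upstream class lies between the others in NFI sites (43.8%) and in CpG-rich windows (52.3%); divergent promoters are shown for the promoter classes only.

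CpG content moved with the NFI comparison, so it was also made within CpG-rich and other windows, a split chosen after the data were seen. In CpG-rich windows the site was in 34.6% of 534 upstream and 27.0% of 1509 core promoter peaks (difference 7.67 points, 3.14 to 12.3), and in the other windows in 53.8% of 487 and 41.7% of 400 (12.0 points, 5.44 to 18.5), so the difference from core promoters was present in both. For perfect sites a difference was not detectable within either kind of window. They were in 3.75% of upstream and 2.25% of core promoter peaks in CpG-rich windows (difference 1.49 points, -0.0836 to 3.56) and in 8.21 and 7.5% in the others (0.714 points, -2.97 to 4.26), and both intervals included 0. The difference from intergenic peaks shrank to -1.16 points in CpG-rich windows (-12.7 to 9.27) and to -5.09 points in the others (-10.7 to 0.491), neither past the threshold, and the score difference from core promoters to 4.56 points (-1.92 to 11.01) in windows that were not CpG-rich. In CpG-rich windows that score difference was 8.18 points (3.26 to 13.07). Among peaks that overlapped no exon the score difference from core promoters was 2.88 points (-4.21 to 10.1, exact test, adjusted p = 0.531, the range over 7 alternatives being 7e-09 to 0.531).

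The share of upstream promoter peaks with an NFI site rose with the score, from 27.4% of the 208 peaks in the lowest quartile of the list to 65.1% of the 304 in the highest. The rise was steeper in CpG-rich windows, from 15.2% (17 of 112) to 62.5% (90 of 144), than in the others, from 41.7% (40 of 96) to 67.5% (108 of 160), and these are given as a description. Core promoter peaks in the same quartiles went from 14.9 to 56.2% and from 25.9 to 63.8%. Across the 1021 upstream promoter peaks the score did not follow distance (Spearman's rho -0.01) or GC content (rho 0.00), with rho 0.32 for the focus ratio, which comes from the same reads.

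**Figure D4:**
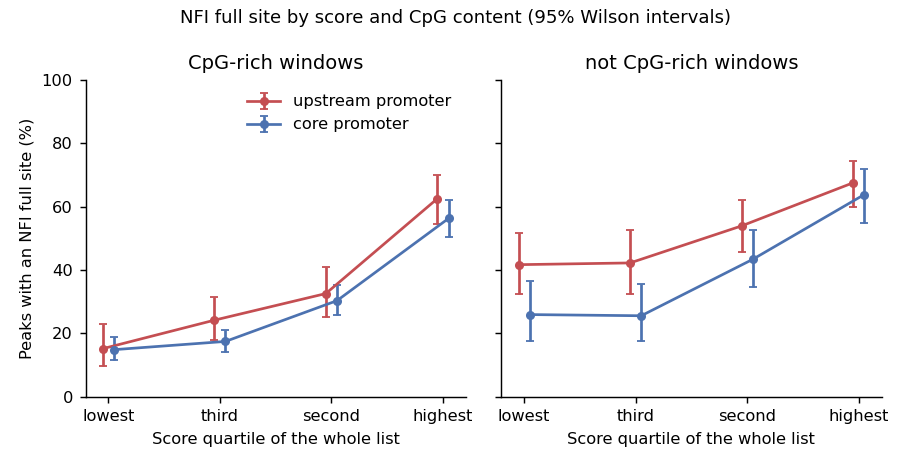
Percentage of upstream (red) and core promoter peaks (blue) with an NFI full site in each score quartile of the whole list, for CpG-rich windows (left) and the others (right), with 95% Wilson intervals. In the lowest quartile the upstream class stands at 15.2% in CpG-rich and 41.7% in other windows, and in the highest at 62.5 and 67.5%.

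Other motifs were compared between upstream and core promoter peaks. Of 23, 4 were less frequent upstream (17.4%) and 1 more frequent (4.35%) at an adjusted p under the threshold of 0.05. Within CpG-rich windows 4 motifs passed it, and within the others 2. The motifs that passed within 1 kind of window need not be those that passed over both together, which are named next. The less frequent ones were the SP site GGGCGG, at 47.2% against 66.2% (Fisher's exact test, adjusted p = 8.31e-22; 65.7% against 72.8% within CpG-rich windows and 26.9% against 41.0% in the others), the ETS site CCGGAAGT, at 2.25% against 6.08% (adjusted p = 1.18e-05), the CTCF site CCNNNAGGNGGC, at 4.6% against 7.96%, and the ZBTB33 site TCTCGCGAGA, at 0.294% against 1.68% (adjusted p = 0.0024 for each of the latter 2). These are sites of factors known at CpG island promoters or, for CTCF, of an insulator protein. The more frequent one was the single-arm NFI site TTGGCA, at 24.6% against 16.7% (Fisher's exact test, adjusted p = 4.93e-06), which contains the arm TGGC of the full site. Its shares were close within CpG-rich windows (16.29% against 14.98%), and the difference lay mainly in the others (33.68% against 23.25%). ZBTB33 sites were less frequent upstream only within CpG-rich windows (0.3745% against 2.121%), with 0.2053% against 0.0% in the others. ETS shares were lower upstream in CpG-rich windows (3.37% against 7.09%) and in the others (1.03% against 2.25%). CTCF shares were 5.99% against 8.48% and 3.08% against 6.0%. The shares of single motifs within each kind of window are given as a description. All 5 motifs past the threshold were also set beside the promoter windows taken without regard to binding, where SP sites were in 10.4%, ETS in 0.455%, CTCF in 1.13%, ZBTB33 in 0.0452% and the single-arm site in 9.41%. Those windows were less often CpG-rich (12.4%) than the upstream promoter peaks (52.3%), and base composition was not adjusted for. Over CpG-rich and other windows together, motifs of acinar factors did not pass the threshold. The motif of RBPJ and RBPJL was in 5.19% of upstream, 3.82% of core and 7.55% of gene-proximal intergenic peaks. Its share was higher upstream than in core promoter peaks within CpG-rich windows (5.805% against 2.717%) and lower in the others (4.517% against 8.0%). The E-boxes CAGCTG and CAGATG, bound by bHLH factors such as PTF1 and MIST1, were in 20.6% of upstream, 17.3% of core and 33.6% of gene-proximal intergenic peaks, GATAAG in 4.11, 2.88 and 10.2%, the FOXA motifs TGTTTAC and TATTTAC in 3.04, 1.89 and 7.32%, and the NR5A2 motifs CAAGGTCA and CAAGGCCA in 3.92, 2.72 and 5.61%. In the promoter windows taken without regard to binding, E-boxes were in 19.4%, GATAAG in 5.82%, FOXA in 5.68%, NR5A2 in 3.17% and RBPJ in 4.07%. GATAAG and FOXA motifs were thus less frequent in upstream promoter peaks than there, and the others slightly more frequent. The ER stress element, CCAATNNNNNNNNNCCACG, was in 0 of 1021 upstream promoter peaks, which allows a share of up to 0.294% when the limit is set at 3 peaks and of up to 0.375% by the 95% Wilson interval. It was in 0.0167% of the promoter windows taken without regard to binding and in 0.00632% of all peaks. At such shares a count of 0 is uninformative.

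A divergent promoter, with the TSS of another protein-coding gene on the opposite strand within 1000 bp of the peak centre, was found in 27 upstream promoter peaks (2.64%) and in 191 core promoter peaks (10.01%), against 7.44% of both classes together. The peaks were assigned to the nearest start site of the deposited annotation, so in it an upstream promoter peak had no start site closer than its own on either strand. The class rule itself thus limits this share, and the 2 shares are given as a description, with no test. By the nearest RefSeq start site of a protein-coding gene, 978 of the 1021 peaks stayed in the class and 33 were core promoter peaks. Among the 27 were *Mrpl34* with *Abhd8* (score 31.3), *Sdccag8* with *Cep170* (21.7) and *Ptrh2*, a mitochondrial peptidyl-tRNA hydrolase, with *Vmp1*, an ER protein needed for autophagosome formation (15.3), all with an NFI site. A site was in 16 of the 27 peaks (59.3%).

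The highest scores of the class belonged to genes of varied function. Among them were *Tor1aip1*, an inner nuclear membrane protein (46.6, at -151 bp), *Pga5*, a pepsinogen (35.5, -598 bp), *Mrpl34*, a protein of the mitochondrial ribosome (31.3, -355 bp), *Atf3* (25.5, -311 bp), *Fam136a* (24.5, -190 bp), *Nfib*, another NFI factor (24.1, -746 bp), *Tpm1*, a tropomyosin (23.7, -178 bp), the Notch target *Hey1* (23.5, -340 bp), *Pgp*, a phosphatase (23.3, -243 bp), *Ccm2* (22.7, -469 bp), *Lsm14b*, an RNA-binding protein (22.3, -361 bp), *Nup210*, a nucleoporin (22.1, -201 bp), *Fam210b* (21.9, -242 bp), and *Kank2* and *Sdccag8*, tied at 21.7 (-278 and -393 bp). Of these named peaks all but that of *Tpm1* held an NFI full site, and those of *Fam136a*, *Hey1* and *Pgp* were perfect. A full site was in 65.1% of the upstream promoter peaks in the highest score quartile and in 43.8% of the class. For perfect sites the shares were 11.2 and 5.88%. The peaks of *Mrpl34*, *Fam136a*, *Nfib*, *Tpm1*, *Hey1*, *Pgp* and *Nup210* overlapped an annotated exon of some gene, as did 343 of the 1021 (33.6%).

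For 526 of the 1010 genes (52.1%) the upstream promoter peak was the only peak in the list, 61 genes (6.04%) had 5 or more peaks, with 12 at *Hpcal1*, and 50 (4.95%) also had a core promoter peak. Only 11 genes had 2 upstream promoter peaks. In 3 of them both were in the highest score quartile. *Zfp768*, a zinc finger protein, had 20.3 at -797 bp and 18.3 at -334 bp, of which only the farther held an NFI site. *Zbtb7b*, a transcription factor, had 15.1 at -577 bp and 14.5 at -426 bp of start sites 5556 bp apart in peak position, and *Dab2ip*, a signalling adaptor, 11.8 at -226 bp and 9.76 at -385 bp of separate start sites, all with an NFI site. Of the others, *Pnliprp2* and *Gapdh* were picked after their values were seen, *Pnliprp2* (12.9 at -696 bp and 8.56 at -205 bp, both with a site) and *Gapdh*, a glycolytic enzyme gene (10.4 at -570 bp with a site and 8.37 at -160 bp without).

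Gene lists were read against the 1009 of 21000 protein-coding genes of the annotation (4.8%) that had an upstream promoter peak. Core promoter peaks were at 9.0% of all genes and peaks of any class at 37.2%. A peak of any class was at 64.1% of the digestive, 69.1% of the unfolded protein response, 60.0% of the autophagy, 81.8% of the clock, 66.7% of the AP-1 and 68.9% of the nuclear receptor genes. These lists were thus not high in upstream promoter peaks alone. The ribosomal protein, respiratory chain, Zfp and chemokine lists lay below 37.2%. The lists were not tested as sets, and a share above 4.8% is a count and not a result about the list. Among all upstream promoter peaks 43.8% held a full NFI site, 56.2% had a score at or above the list median and 52.3% were CpG-rich. Counts of these features within a list are to be read against those shares.

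Of 39 digestive enzyme and secreted acinar protein genes, 6 had an upstream promoter peak (15.4%, 7.25 to 29.7%). A score at or above the list median, reached by 56.2% of upstream promoter peaks, was found at all 6. These were *Cela2a* (17.9, -154 bp), *Ctrb1* (15.1, -164 bp), *Pnliprp2* (above), *Tff2* (11.6, -553 bp), *Sycn*, which encodes the zymogen granule protein syncollin (8.96, -171 bp), and *Cpa1*, a carboxypeptidase (8.56, -443 bp). *Ctrb1*, *Pnliprp2* and *Tff2* held a full NFI site and the peaks of *Cela2a*, *Sycn* and *Cpa1* did not. No window of these 7 peaks was CpG-rich, against 52.3% of all upstream promoter peaks. Among 31 acinar and pancreatic transcription factors there were 3, namely *Nr0b2*, an orphan receptor that represses other nuclear receptors (18.3, -492 bp, no full site), *Bhlha15* (17.9, -187 bp, with a site) and *Rbpj*, the Notch effector (5.38, -940 bp, no site).

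Genes of the unfolded protein response and ER stress had an upstream promoter peak in 12 of 68 cases (17.6%, 10.4 to 28.4%), and a core promoter peak in 13. None of the 12 had both, and having both was rare among all 1010 genes with an upstream promoter peak (50, 4.95%). The transcription factor genes were *Atf3* (25.5) and *Ddit3*, which encodes CHOP (6.57, -328 bp), both with an NFI site. Targets of the ATF4 and CHOP arm were *Ddit4*, an mTORC1 inhibitor (14.7, -284 bp, no site), the glutamine transporter *Slc1a5* (12.7, -170 bp, site), and *Chac1*, a glutathione-degrading enzyme (8.37, -252 bp, site). Folding and degradation genes were *Ero1b* (11.8, -409 bp, site), *Dnajc3*, the co-chaperone P58IPK (9.16, -331 bp, no site), *Hyou1*, an ER chaperone of the HSP70 family (7.37, -155 bp, no site), *Derl3*, of the ER degradation machinery (6.97, -379 bp, site), *Herpud2* (6.57, -345 bp, no site), the lectin chaperone *Canx* (6.37, -261 bp, no site) and *Dnajc13*, an endosomal J-domain protein (5.58, -223 bp, site). Of these 12, 7 held a full NFI site and 10 had a score at or above the median, against 43.8 and 56.2% of all upstream promoter peaks. The secretory pathway list had 4 of 78 (5.13%, 2.01 to 12.5%), near the share of all genes, against 12 with a core promoter peak. They were *Sec31a*, a COPII coat protein (9.56, -197 bp), the Golgi GTPase *Rab1a* (7.97, -257 bp), and the cargo receptors *Tmed10* (5.58, -535 bp) and *Tmed2* (5.18, -161 bp), of which only *Tmed10* held a site.

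**Figure D5:**
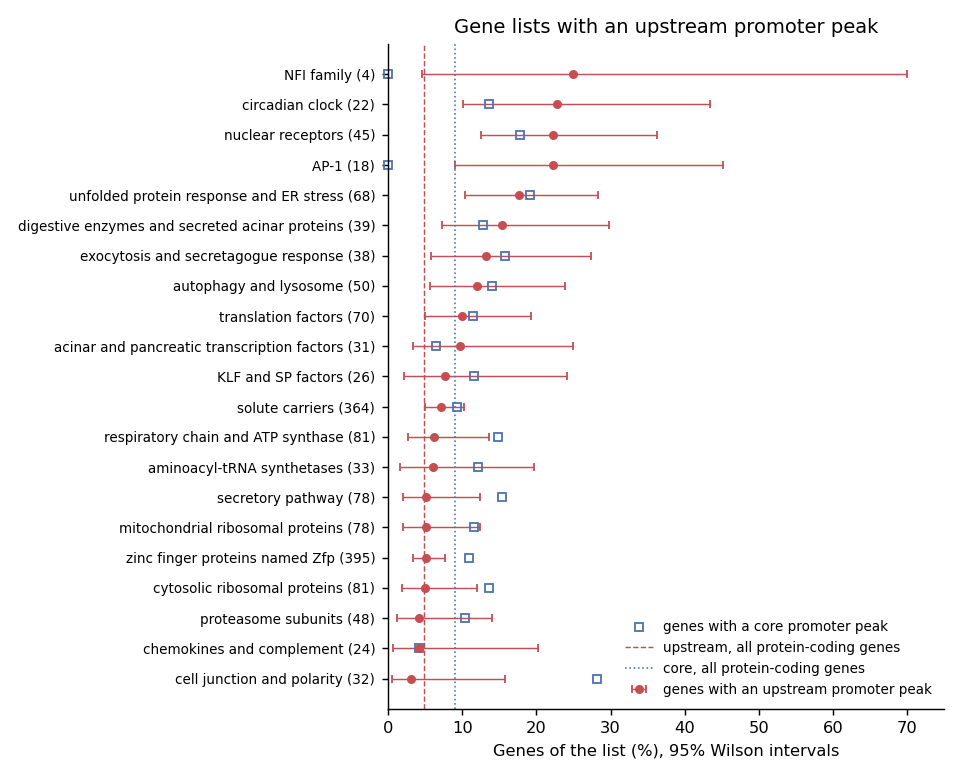
Percentage of the genes of each of 21 lists (number of genes in brackets) with an upstream promoter peak (red, with 95% Wilson intervals) and with a core promoter peak (blue squares), beside the same shares of all protein-coding genes, 4.8% (dashed) and 9.0% (dotted). The AP-1 and NFI lists had upstream but no core promoter peaks, and cell junction genes had 28.1% core and 3.12% upstream.

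The autophagy and lysosome list had 6 of 50 (12.0%, 5.62 to 23.8%). *Gabarap* (12.0, -398 bp), the cathepsin gene *Ctsb* (7.77, -915 bp), *Gabarapl1* (6.97, -301 bp) and *Wipi1* (4.98, -629 bp) held an NFI site, and the lipid kinase gene *Pik3c3* (5.78, -160 bp) and the lipid transfer gene *Atg2a* (4.18, -238 bp) did not. *Gabarap* and *Gabarapl1* encode ubiquitin-like proteins that are attached to autophagosome membranes. Of 22 circadian clock genes 5 had one (22.7%, 10.1 to 43.4%). Among them were the core activator *Clock* (14.1, -491 bp, no site), the repressor genes *Bhlhe40* (12.7, -798 bp, site), *Nr1d1* (10.8, -256 bp, no site) and *Cry1* (4.98, -349 bp, no site). Of 18 AP-1 genes 4 had an upstream promoter peak (22.2%, 9.0 to 45.2%) and 0 a core promoter peak, namely *Atf3* (25.5), *Fosl1* (9.96, -249 bp, perfect site), *Fosl2* (8.37, -973 bp, no site) and *Fos* (6.77, -407 bp, no site). Of the 4 NFI genes only *Nfib* had one.

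Nuclear receptor genes had 10 of 45 (22.2%, 12.5 to 36.3%), among them *Nr2c2* (18.9, -359 bp, perfect site), *Nr4a2* (18.7, -183 bp, site) and *Nr0b2* (18.3). Solute carriers had 26 of 364 (7.14%, 4.92 to 10.3%), led by the nucleotide sugar transporter family gene *Slc35c2* (15.9), *Slc37a1* (14.1), *Slc35b1*, an ER ATP and ADP exchanger (13.5), and *Slc1a5* (12.7). Zinc finger genes named Zfp had 20 of 395 (5.06%, 3.3 to 7.69%), led by *Zfp768*, *Zfp592* (16.9), *Zfp810* (12.9) and *Zfp36l2* (10.8). Translation factors had 7 of 70 (10%, 4.93 to 19.2%), led by *Eef1a1*, the main elongation factor (8.96), *Eif4a2*, an RNA helicase (8.56), *Eif4g2* (7.37) and *Eef1g* (6.37). Exocytosis and secretagogue response genes had 5 of 38 (13.2%, 5.75 to 27.3%), led by the store-operated calcium channel *Orai1* (10.6), the muscarinic receptor *Chrm3* (8.56), the ER calcium pump *Atp2a2* (6.17) and the SNARE gene *Snap23* (5.58), and none of these 4 held an NFI full site.

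The 95% intervals of the remaining lists all included the 4.8% of all genes, as did those of the transcription factor, NFI, secretory pathway and Zfp lists. The lists were chosen with earlier results of these data known, so an interval above 4.8% is not a result about a list. Cytosolic ribosomal proteins had 4 of 81 (4.94%, 1.94 to 12.0%), which were *Rps21* (11.8), *Rpl13a* (5.18), *Rpl30* (4.18) and *Rps14* (3.98), none with a full site. Mitochondrial ribosomal proteins had 4 of 78 (5.13%), *Mrpl34* (31.3), *Mrps14* (6.77), *Mrpl17* (5.18) and *Mrpl41* (4.98, perfect site). The respiratory chain and ATP synthase had 5 of 81 (6.17%, 2.67 to 13.7%), led by *Ndufa13* (13.1), *Uqcrq* (10.4), *Atp5d* (9.36) and *Atp5l* (5.58). Aminoacyl-tRNA synthetases had 2 of 33 (*Nars2*, 9.56, and *Lars*, 6.77), proteasome subunits 2 of 48 (*Psmc6*, 7.17, and *Psma4*, 5.98), KLF and SP factors 2 of 26 (*Klf3*, 8.17, and *Sp1*, 7.37), chemokines and complement 1 of 24 (*Cx3cl1*, 15.1), and cell junction and polarity genes 1 of 32 (*Muc1*, 8.56), the last against 9 with a core promoter peak.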

How the data were processed

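NFIC ChIP-Seq and input DNA libraries of mouse pancreas were analysed from the peak table the authors deposited, annotated against mm10 with HOMER according to its header. The submitters' processing notes name BWA, Picard and MACS2, and versions are not given in the sources used here. The paper's methods name the RUbioSeq+ pipeline and HOMER for peak calling, and HOMER for merging replicates and annotating. Which caller gave the deposited score is not stated. The deposited score and the deposited focus ratio, a fraction, are 1 value per merged peak, so the depth and the spread between libraries are unknown. The deposited distance to the TSS is in bp from the peak centre. The table has no values per library and holds no p-value.

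The members, classes and gene lists were chosen with earlier results of these data known. Sequences were read from the GRCm38 RefSeq genome (the assembly of mm10) in 200-bp windows with pysam 0.24.0. Of 991 members whose assigned transcript was in RefSeq, 914 (92.2%) had the deposited distance within 2 bp. CpG ratio, NFI sites and 23 other motifs were scored on both strands with exact matching except where a mismatch is named. Beside those spelled out in the results they were CCCCACCC (KLF), CCAATCA and CCAATCG and also CCAATGA and CCAATGG (NFY, whose reverse can overlap the NFI arm), TGACGTCA (CRE), TGACTCA (AP-1), GCGCATGCGC (NRF1), AAGATGGCG (YY1), ACTACAATTCCC with 1 mismatch (THAP11), CACGTG (MYC and CLOCK), GTGGGAA (RBPJ), GTTAATNATTAAC with 1 mismatch (HNF1), CAAAGTCCA (HNF4), TGATGCAA (ATF4 and CHOP) and TATAAA (bound by TBP). The E-box CAGCTG and the single-arm NFI site are 6 bases long, and chance matches are frequent.

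Shares of peaks were compared between classes with two-sided Fisher's exact tests (scipy 1.17.1), with 95% Newcombe intervals and Benjamini-Hochberg adjustment over 7 share tests (1 of them, of divergent promoters, is limited by the class rule and not reported) and, separately, the 23 motifs. The scan and the test were tested on simulated data. Divergent promoters used RefSeq NM transcripts. Named genes were those of the 15 highest scores (ties kept), genes with 2 peaks in the highest score quartile, every member of the digestive enzyme, transcription factor, unfolded protein response, secretory, autophagy, clock, AP-1 and NFI lists, and the 4 highest of each other list. Sequences were shown for the highest-scoring perfect sites and for named acinar, stress and secretory genes without exon overlap. *Tor1aip1* and the autophagy, clock and AP-1 sites were added after their values were seen. A result for 1 gene that these rules would name is not reported here.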

Additional observations from a re-analysis of the deposited data

How the results depend on the processing

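Of 81 alternative values, 68 kept their direction and side of the threshold or, for counts, stayed within 1.5 times. The 68 include 8 of the divergent promoter comparison, which the class rule limits, and those 8 say nothing about stability. The lower share of NFI sites than in gene-proximal intergenic peaks was not past the threshold in the upper 2 score quartiles (-5.53 points, Fisher's exact test, adjusted p = 0.0664), nor, in splits chosen after seeing the data, in CpG-rich windows (-1.16) or in the others (-5.09). Over its 11 alternatives the adjusted p ran from 4.77e-13 to 0.9. The higher share of scores above the median than in core promoter peaks was not past it in windows that were not CpG-rich (4.56 points, exact test, adjusted p = 0.297) or in peaks without exon overlap (2.88 points), both chosen after seeing the data, and its adjusted p ran from 7e-09 to 0.531. The score difference from intergenic peaks, not past the threshold as reported, turned to 2.66 points in windows that were not CpG-rich. In CpG-rich windows it was -11.8 points (-22.4 to -0.172, exact test, adjusted p = 0.0697), so the 2 kinds of window differed in sign. The higher NFI share than in core promoters stayed past the threshold in all 11 alternatives (2.52 to 14.1 points), as did the CpG comparisons in their 8 each. Motifs past the threshold numbered 8 with the window reaching to -100 bp and 2 in windows that were not CpG-rich, against 5. The upper 2 score quartiles held 574 peaks at 568 genes and 77 of the 125 listed genes, and the window ending at -250 bp held 646 peaks at 642 genes. The score comparisons have no value in the upper 2 quartiles, where every peak passes. No paired analysis was possible because the list is merged over libraries, and for the same reason no library could be left out. Depth is unknown, so precision per peak cannot be given.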
